A study of Mus musculus with 2 samples.

Results

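The distal 3'UTR is the stretch of a last exon that lies downstream of the most proximal annotated poly(A) site and is present only in the long mRNA isoform. Distal 3'UTRs of 2500 bp or more were chosen by length alone from the deposited table of transcript parts, without use of any read. They were annotated in 1279 of the 8740 transcripts that have a distal 3'UTR, and all 1279 also have an upstream part of the last exon. With the most read transcript standing for each gene they made up 870 genes, and 258 genes or unnamed entries had several such transcripts, which share reads. The RNA came from mTEChi, the class of thymic medullary epithelial cells that carries much MHC class II, which were sorted as CD45-negative cells with low or intermediate Ly51. Both libraries came from 1 lentigenic mouse on the B6 background that carried 3 hairpins against Clp1 under a doxycycline-inducible promoter, a transactivator under the EF1 promoter and a green fluorescent reporter. From the age of 3 weeks it was fed doxycycline (2 g per kg) during 2 weeks. Cells with the GFP signal made up the Clp1 knockdown library (Clp1_KD). Cells without it, which shared the animal and the drug, made up the control library (Ctr). Each group is 1 library, so the differences below have no replicate check and no p-values, and they compare these libraries only.

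Most mammalian pre-mRNAs are cut and polyadenylated a short distance downstream of a poly(A) signal, the hexamer AATAAA or a variant such as ATTAAA. When a gene has several such sites, use of the proximal site gives a short 3'UTR, and passage to a distal site gives a long one. Long 3'UTRs carry more binding sites for microRNAs and RNA-binding proteins, and they are common in genes of the nervous system. Clp1 is a kinase that belongs to cleavage factor II, part of the 3' end processing machinery. The study asked whether Clp1 favours short 3'UTRs in mTEChi. The d3'UTR ratio is the read density of the distal part divided by that of the upstream part of the same last exon, so that a ratio near 0 describes reads that stop at the proximal site and a ratio near 1 describes reads that run on.

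The distal parts could be placed on the mm9 genome for 694 of the 870 genes. The sequences below are windows of 30 bases that end at the proximal site or shortly before it, on the transcript strand. They are shown because the d3'UTR ratio differed with the signal found there. Capitals mark the AATAAA nearest the site, or the nearest ATTAAA where AATAAA was absent. The window of Tial1 holds another AATAAA, farther from the site and left in lower case. Windows wholly in lower case had neither hexamer in the 40 bases before the site. The first 3 belong to members with the most last-exon reads, the next 4 to members called lengthened and the last 3 to members called shortened. Those of called members shown here all hold a hexamer. Among all placed members, 44 of 103 called lengthened and 57 of 114 called shortened had neither.
Timp3, chr10:85808744-85808773, plus strand: cttgcaaatttagcactggggacacttaaa
Clic4, chr4:134772541-134772570, minus strand: aggagtctggaaggattactactgtgtcag
Btg1, chr10:96082226-96082255, plus strand: ctctatAATAAAttgtttcttatcttggca
Cnih4, chr1:183096503-183096532, plus strand: tttaaaaaaAATAAAttgagtttttgtaga
Zfyve27, chr19:42266179-42266208, plus strand: gagaattgtcAATAAAaggccccatgctta
Vma21, chrX:69066368-69066397, plus strand: tttgAATAAAgttgaaagaacatgttaaaa
Itgav, chr2:83644268-83644297, plus strand: tttataATTAAAaatacccgttaagtaata
Tial1, chr7:135585795-135585824, minus strand: caaaaaactaaaataaagtcAATAAAgaca
Strbp, chr2:37439175-37439204, minus strand: gattacaAATAAActgctttgttgtaacac
Rsf1, chr7:104834901-104834930, plus strand: ttcatATTAAAtatatattatatttaaaca
All of these windows lie in the last exon, at the end of the upstream part.

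The tables held 28464803 (Ctr) and 37524730 (Clp1_KD) reads, and the long distal parts took 402236 and 595051 of them. The median gene of the 870 had 360.5 and 498.5 reads in its last exon, and 791 genes had at least 10 in each library. Of the 79 others, 39 were below 10 in Ctr only, 13 in Clp1_KD only and 27 in both, and 6 of these had no last-exon read at all. Clp1, which has no annotated distal part, had 1573 reads in Ctr and 812 in Clp1_KD, which is 39.7% of the Ctr level after scaling (95% interval 36.4% to 43.2%). All 14 markers of mature mTEC were read in both libraries, with summed scaled counts of 702781 in Ctr and 804733 in Clp1_KD. Of these, 4 were 2-fold or more higher in Clp1_KD and 1 was lower. Markers of other cells were lower in Clp1_KD: all 9 endothelial genes fell by 2-fold or more (summed 23205 and 2186 scaled reads), as did 9 of 12 thymocyte genes (15945 and 4720), 3 of 4 red cell genes (61892 and 2071), 4 of 8 cortical epithelial genes (49196 and 41296) and 6 of 9 genes of fibroblasts and mural cells (19947 and 10563). Of 8 dendritic cell and macrophage genes 5 fell and 1 rose (2871 and 1388), and of 7 B cell genes 5 fell although their sum did not (4802 and 4848). Over all 16831 genes with at least 50 reads, 18.6% were 2-fold or more lower in Clp1_KD and 19.1% higher. No marker was at 0 in either library, and their part in the results below was not tested. In bulk RNA, fewer cells of a type and less RNA per cell cannot be told apart.

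The level of the long distal 3'UTRs was compared first. Their median d3'UTR ratio was 0.356 in Ctr (quartiles 0.118 and 0.804, 781 genes with an upstream read) and 0.377 in Clp1_KD (0.140 and 0.799, 822 genes). The difference of the medians was 0.08 on the log2 scale. Over the 791 genes with enough reads, the median change per gene was 0.01 (log2 of Clp1_KD over Ctr), with 402 genes above 0 and 389 below. The middle of the distribution of long distal 3'UTRs lay close together in the libraries, each within the other's order-statistic 95% interval of the median over genes (0.316 to 0.411 in Ctr, 0.336 to 0.415 in Clp1_KD). Genes are not replicates, so these intervals describe the spread over genes only. Distal parts of intermediate length were read more fully relative to their upstream part: the median ratio was 0.509 in Ctr and 0.527 in Clp1_KD at 1000 to under 2500 bp, and 0.490 and 0.543 at 200 to under 1000 bp. Those under 200 bp had the lowest medians of the 4 length classes (0.020 and 0.046). A read of 50 bp had to lie fully within such a part to be counted. Within the long class the ratio was lower again from 4000 bp on. It was 0.398 and 0.393 at 2500 to under 3000 bp, 0.409 and 0.434 at 3000 to under 4000 bp, 0.265 and 0.285 at 4000 to under 5000 bp, and 0.284 and 0.254 at 5000 bp or more, where the median change per gene was -0.14.

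**Figure D1:**
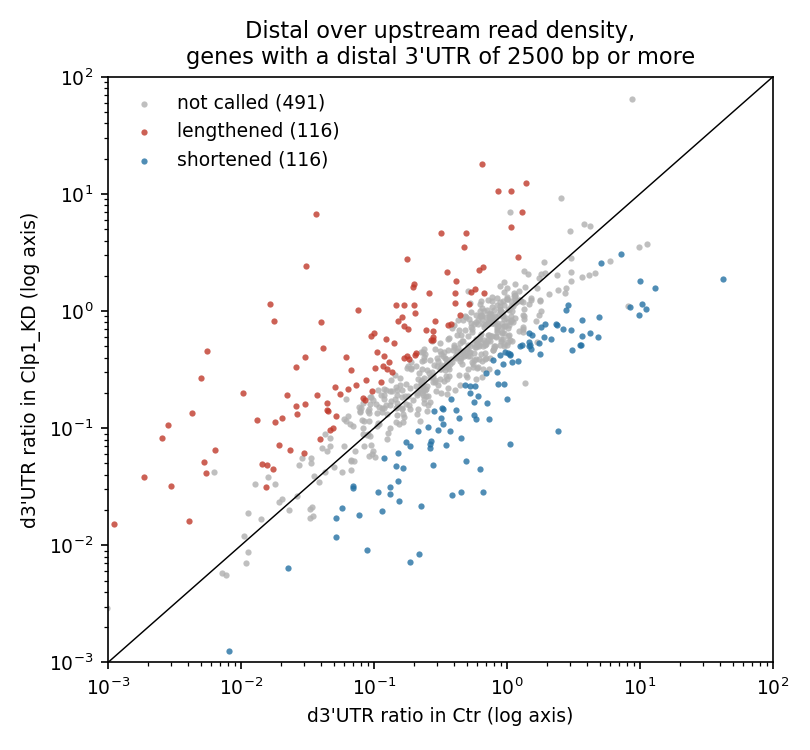
The d3'UTR ratio (distal over upstream read density, no unit, log axes) in Clp1_KD against Ctr for the 723 of 791 genes with reads in all 4 parts, each point 1 gene, 1 library per axis. Grey points follow the diagonal, and the called genes lie on both sides of it, 116 above (red, lengthened) and 116 below (blue, shortened).

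Individual genes moved in both directions. A gene was called lengthened or shortened when its d3'UTR ratio changed by 2-fold or more with a 95% interval, for counting error only, that excluded 0. Below, the reads of a gene are given as distal and upstream, first in Ctr and then in Clp1_KD, and changes are on the log2 scale with their interval. Of the 791 genes 133 were lengthened in Clp1_KD and 144 were shortened, that is 16.8% and 18.2%. Over all 5702 genes with a distal 3'UTR of any length the shares were 13.5% and 12.4%. Those under 200 bp were seldom called (4.49% and 5.34%). Of these 1048 genes 525 had a part with no read. The median counting standard error of their changes was 2.07, against 0.26 in the long class, so few could reach a call. The distal parts of 200 to under 2500 bp gave 15.3% and 13.2%. Without the genes that could not be placed on the genome, or whose distal part overlaps an exon of another gene, 94 were lengthened and 96 shortened among 566.

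The calls followed the number of reads. Among long distal 3'UTRs with 20 to under 100 last-exon reads over both libraries, 8 of 20 genes were lengthened (40%) and 2 were shortened, Zdhhc15 and Zfp870, which were named after their values were seen. With 100 to under 300 reads 31 of 98 were lengthened (31.6%) and 24 shortened (24.5%). With 300 to under 1000 reads 53 of 268 were lengthened (19.8%) and 67 shortened (25%). With 1000 to under 3000 reads 37 of 271 were lengthened (13.7%) and 45 shortened (16.6%). With 3000 reads or more 4 of 134 were lengthened (2.99%) and 6 shortened (4.48%). The share lengthened thus fell from bin to bin, whereas the share shortened rose first and fell after 1000 reads. In the distal parts of 200 to under 2500 bp both shares rose from the first bin to the second, from 18.8% lengthened and 19.4% shortened at 20 to under 100 reads to 24.4% and 24.6% at 100 to under 300. They were 20.5% and 16.5% at 300 to under 1000 reads, and 4.80% and 2.63% at 3000 or more. The spread of the changes narrowed in parallel but stayed wider than counting error. Between the quartiles the changes of long distal parts ran from -2.23 to 1.95 at 100 to under 300 reads, where the median counting standard error was 0.88. They ran from -0.27 to 0.32 at 3000 reads or more, where that error was 0.11. The median change was 1.24 in the 20 genes with fewest reads and between -0.06 and 0.10 in every other bin.

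**Figure D2:**
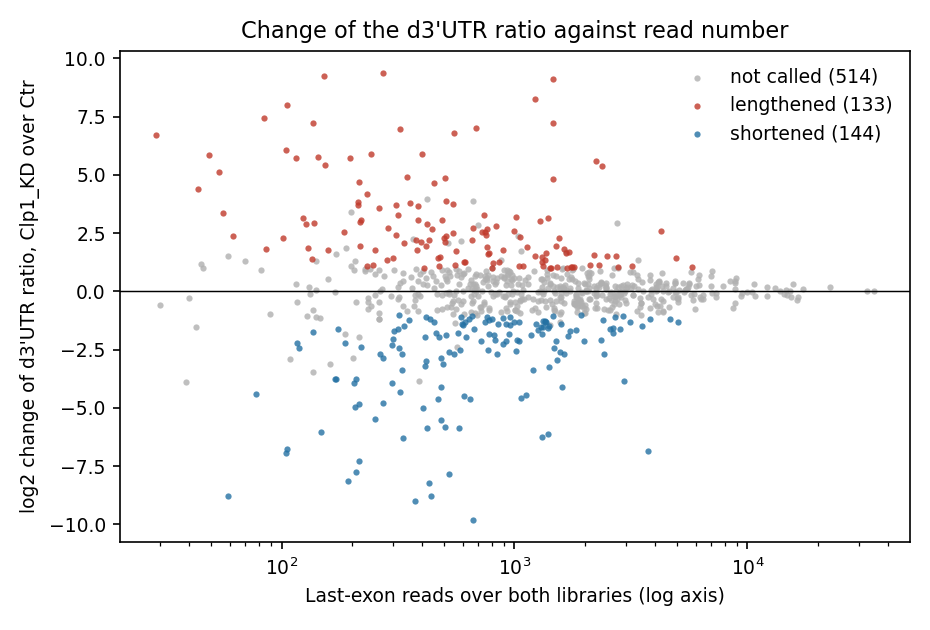
Log2 change of the d3'UTR ratio, Clp1_KD over Ctr, against the last-exon reads over both libraries (log axis) for the 791 genes with long distal 3'UTRs. Points fan out to both sides at low read numbers, and between 3000 and the highest read numbers only 10 genes carry a call.

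**Figure D3:**
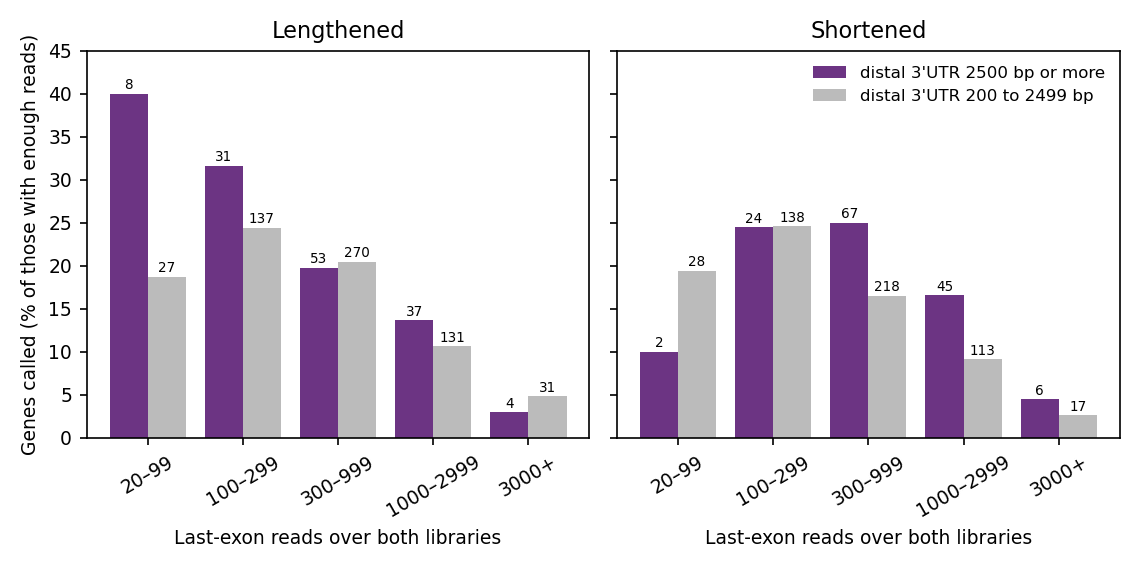
Percent of genes called lengthened (left) and shortened (right) by last-exon reads over both libraries, for long distal 3'UTRs (purple) and those of 200 to under 2500 bp (grey), with the number called above each bar. The share of long distal 3'UTRs called lengthened falls from 40% to 2.99%, and both length classes have their lowest shares at 3000 reads or more.

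The genes with the most last-exon reads had like ratios in both libraries. Timp3, an inhibitor of matrix metalloproteinases, had 13027 distal and 1126 upstream reads in Ctr and 19122 and 1613 in Clp1_KD. Its d3'UTR ratio was 1.08 and 1.10, and its distal part overlaps Syn3 on the other strand. The chloride channel protein gene Clic4, with 12133 and 2650 reads in Ctr and 14557 and 3179 in Clp1_KD, had a ratio of 1.10 in both libraries, a change of 0.00 (-0.08 to 0.08). Btg1, an antiproliferative gene, lay at the other end. It had 289 distal and 11497 upstream reads in Ctr and 301 and 10586 in Clp1_KD, so that nearly all of its last-exon reads lay before the proximal site, which carries AATAAA 18 bases upstream. Its change was 0.18 (-0.06 to 0.41). Mtpn, which encodes myotrophin, had ratios of 0.72 and 0.78, and the zinc finger gene Zfp706 had 0.32 and 0.26. None of these 5 genes was called, and their ratios in the 2 libraries differed by 1.20-fold or less.

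The poly(A) signal at the proximal site went with the level of the ratio. AATAAA was found before the proximal site of 212 of the 694 placed genes, ATTAAA alone before 100, and neither before 382. Where AATAAA was present the median d3'UTR ratio was 0.209 in Ctr and 0.212 in Clp1_KD (196 genes with enough reads). Where ATTAAA alone was present it was 0.314 and 0.421 (89 genes), and where neither was present it was 0.562 and 0.513 (343 genes). Both libraries gave the same order, and so did the distal parts of 1000 to under 2500 bp (0.301, 0.414 and 0.746 in Ctr) and of 200 to under 1000 bp (0.305, 0.480 and 0.798). It was also seen with upstream parts under 600 bp (0.218, 0.266 and 0.611 in Ctr) and of 600 bp or more (0.202, 0.455 and 0.508). At 3000 last-exon reads or more, AATAAA still had the lowest median (0.273 in Ctr and 0.218 in Clp1_KD, 28 genes), but in Ctr that of ATTAAA (0.538, 19 genes) was above that of neither (0.519, 61 genes). Between the libraries each signal class had a median near 0. The median change per gene was -0.01 with AATAAA, 0.075 with ATTAAA and -0.03 with neither. With AATAAA, 42 genes were lengthened and 40 shortened of 196, with ATTAAA 17 and 17 of 89, and with neither 44 and 57 of 343. A hexamer match is a description of the sequence and not a measured site of cleavage.

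**Figure D4:**
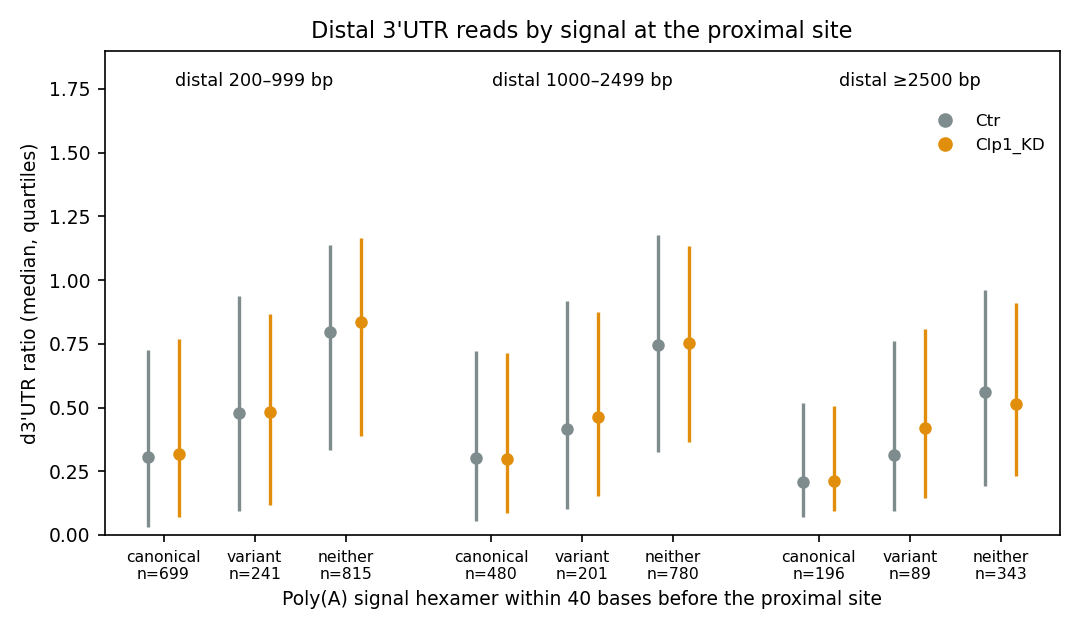
Median d3'UTR ratio (points) with quartiles (bars) in Ctr (grey) and Clp1_KD (orange), by the signal in the 40 bases before the proximal site (canonical AATAAA, variant ATTAAA, or neither), for 3 classes of distal length. In each class and library the order rises from canonical to neither, and the long class has the lowest medians for canonical (0.209 and 0.212).

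Other sequence features set the long distal parts beside the shorter ones. Their median GC content was 42.6% (quartiles 39.1% and 46.5%), below the 46.9% of the upstream parts. The upstream part, which includes the coding sequence of the last exon, had the higher GC content in 554 of 694 genes (79.8%). Shorter classes were alike in this. At 1000 to under 2500 bp the medians were 42.7% and 46.95%, with the upstream part higher in 77.7% of genes. At 200 to under 1000 bp they were 41.9% and 47.2%, with the upstream part higher in 80.3%. The far end of the exon carried AATAAA within 40 bases in 68.2% of genes, whereas the proximal site did in 30.5%. For distal parts of 1000 to under 2500 bp these shares were 60.2% and 32.7%, so that the proximal share was near that of the long class. At 200 to under 1000 bp they were closer to each other, at 54.3% and 40.1%. On the transcript strand, the long distal parts held 1.88 matches per kb to ATTTA, the core of AU-rich elements, and 0.225 per kb to TGTANATA, the Pumilio motif. Both densities were near those of the 1000 to under 2500 bp class (1.95 and 0.234). Because of their length, 51.6% of long distal parts had at least 1 Pumilio match, compared with 29.2% at 1000 to under 2500 bp and 12.5% at 200 to under 1000 bp. The same held for CTACCTC, which pairs with the seed of the let-7 microRNAs. It was present in 161 of the long distal parts (23.2%), and in 10.9% and 3.55% of the shorter classes. The seed (bases 2 to 8) is in capitals in the RefSeq sequence of the family member shown, so that the match can be read against it.
mmu-let-7a-5p: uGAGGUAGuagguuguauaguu
Genes with a let-7 match had a median change of the d3'UTR ratio of 0.01 (140 genes) and those without one of -0.01 (488 genes). By GC content of the distal part, the median change was 0.11 under 40% (196 genes), -0.01 from 40% to 45% (217 genes) and -0.06 above 45% (215 genes). In the last of these groups 25 genes were lengthened and 42 shortened (11.6% and 19.5%), and in the first 35 and 32 (17.9% and 16.3%). Over all 791 genes the shares were 16.8% and 18.2%. An exon of another gene on the opposite strand lay in 64 of the 694 distal parts. Of the 60 such genes with enough reads 9 were lengthened (15%) and 17 shortened (28.3%). Of the 568 without such an exon 94 were lengthened (16.5%) and 97 shortened (17.1%). The sources used here do not say whether counting took account of strand.

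The lengthened genes whose intervals lay farthest from 0 were read mainly before the proximal site in Ctr. Ddx19b, a DEAD-box RNA helicase, had 0 distal and 65 upstream reads in Ctr and 174 and 34 in Clp1_KD, a ratio at least 111-fold higher when 3 reads are taken as the floor for a part at 0. For 2610002M06Rik the reads were 0 and 123 in Ctr and 921 and 412 in Clp1_KD (at least 91.7-fold higher). Cnih4, a cargo receptor of the early secretory pathway, had 0 and 416 reads in Ctr and 219 and 587 in Clp1_KD (at least 51.7-fold higher). In each of these genes the distal part was empty in Ctr and read in Clp1_KD, while the upstream part was read in both. The phospholipase gene Plaat3 had 12 distal and 1125 upstream reads in Ctr and 393 and 842 in Clp1_KD, a log2 change of 5.39 (4.57 to 6.22). Its distal part rose by 4.65 and its upstream part fell by 0.80. Zfyve27, which encodes protrudin of the endoplasmic reticulum, went from 2 and 1069 reads to 118 and 1049 (5.59, 3.78 to 7.41). Its upstream part hardly moved (-0.41). The T cell adaptor gene Sh2d2a had 6 and 328 reads in Ctr and 62 and 108 in Clp1_KD (4.86, 3.66 to 6.07). The monooxygenase gene Fmo5 had 0 and 513 reads in Ctr and 122 and 832 in Clp1_KD, a ratio at least 25.1-fold higher. The zinc finger genes Zfp882 (5.90, 4.32 to 7.48) and Zfp866 (4.81, 3.26 to 6.35) each had 3 distal reads in Ctr and over 90 in Clp1_KD. Soga1 differed from the rest. It had 152 and 119 reads in Ctr and 177 and 5 in Clp1_KD (4.66, 3.39 to 5.93), so that its upstream part fell and its distal part did not change by 2-fold.

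Several of the most shortened genes had no upstream read in Ctr. Akap11, an anchoring protein of protein kinase A, had 427 distal and 0 upstream reads in Ctr and 116 and 122 in Clp1_KD, a ratio at least 150-fold lower. The same pattern was found in G2e3, a ubiquitin ligase (196 and 0 reads, then 78 and 101; at least 84.6-fold lower), and in the chromatin remodelling factor Rsf1 (266 and 0, then 94 and 77; at least 72.6-fold lower). It recurred in Pogz, a zinc finger chromatin protein (220 and 0, then 126 and 84), in Gm15760 (78 and 0, then 41 and 73), in the unconventional myosin gene Myo9a (158 and 0, then 213 and 153) and in Slc30a10, a manganese exporter (68 and 0, then 69 and 79). These last 4 were at least 48.9-fold, 46.3-fold, 37.8-fold and 26.0-fold lower. In each of these 7 genes all Ctr reads of the last exon lay past the proximal site, and the bounds rest on an upstream part without a Ctr read. Against all upstream exons in place of the upstream last exon, the log2 changes were -3.69 (-4.02 to -3.35) for Akap11, -3.08 for G2e3, -2.49 for Rsf1 and -2.72 for Pogz, which are much smaller falls than these bounds. That of Myo9a was -0.39 (-0.73 to -0.05), short of the call, whereas Gm15760 (-8.12, -12.17 to -4.07) and Slc30a10 (interval -8.38 to -3.63) kept theirs. Others shortened through the distal part. Tial1, an RNA-binding protein of stress granules, had 293 and 67 reads in Ctr and 39 and 206 in Clp1_KD (-4.51, -5.13 to -3.88), its distal part falling by 3.29 and its upstream part rising by 1.24. Abt1 went from 156 and 589 reads to 2 and 646 (-6.10, -7.91 to -4.29). Dcun1d3, which acts in neddylation of cullins, went from 113 and 438 to 5 and 506 (-4.58, -5.82 to -3.33).

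Each part was also compared on its own after scaling. Among the 133 lengthened genes the distal part alone was 2-fold or more higher in 66, the upstream part alone was lower in 19, and both happened in 18. Both parts were higher in 17 and both lower in 3 (Chrnb2, Glcci1 and Sema5a, named after their values were seen), and in 10 neither part passed. The median change was 1.95 for the distal part and -0.41 for the upstream part. Among the 144 shortened genes the distal part alone was lower in 42, the upstream part alone was higher in 49, and both happened in 16. Both parts were higher in 14 and both lower in 2 (C1qtnf1 and Jam2), and in 21 neither passed. The median change was -0.78 for the distal part and 1.32 for the upstream part. These counts use the same reads as the calls and describe them. A part with no read was frequent in the called genes. In Ctr, the upstream part was at 0 in 28 of the shortened genes and the distal part in 15 of the lengthened genes, while in Clp1_KD the upstream part was at 0 in 2 lengthened genes (Kif21b and Tmem44). The 28 shortened genes had 15 to 911 last-exon reads in Ctr, and 19 of them had at least 10 Ctr reads in earlier exons or the 5'UTR. Against all upstream exons 20 of the 28 were still called shortened, 6 had no call and 2 (Ralgps2 and Tbc1d16, named after their values were seen) were called lengthened, and their median change was -1.69 in place of -6.14. What left these upstream parts without a read was not tested, so these calls and their bounds give the ratio of the reads and do not show by themselves a change of 3'UTR length. Of the other 116 shortened genes 88 were still called, and of the 133 lengthened genes 112. The 514 genes without a call had a median of 1493 last-exon reads over both libraries, the lengthened 507 and the shortened 660.5.

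Among the genes with 3000 last-exon reads or more, the calls fell on 10 named genes, chosen for this count after their values were seen. Psmb11, the thymoproteasome subunit of cortical epithelium, had 185 distal and 3398 upstream reads in Ctr and 169 and 511 in Clp1_KD (2.60, 2.27 to 2.93). Its upstream part fell by 3.11 and its distal part by 0.51. Psmb11 is on the cortical marker list, of which 4 of 8 genes were 2-fold lower in Clp1_KD. Satb1, a chromatin organiser, had a change of 1.05 (0.77 to 1.33), Cyria one of 1.09 (0.77 to 1.41) and the Mediator subunit gene Med28 one of 1.44 (0.63 to 2.26) on 15 and 55 distal reads. On the other side, Lifr, the receptor of leukemia inhibitory factor, had 911 distal and 0 upstream reads in Ctr and 2661 and 166 in Clp1_KD. The signal peptide peptidase gene H13 changed by -1.47 (-1.74 to -1.21), Dcaf7 by -1.33 (-1.57 to -1.09), the sulfotransferase gene Chst2 by -1.30 (-1.66 to -0.93), Nras by -1.20 (-1.41 to -0.98) and the nucleolin gene Ncl by -1.19 (-1.39 to -0.98). Nras lost its call against all upstream exons (-0.83), and Lifr kept it (-1.87). Apart from Psmb11 and Lifr these changes were between 2-fold and 3-fold.

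The longest distal 3'UTRs did not move together. That of Aak1, a kinase of clathrin adaptors, is the longest, with 15184 bp. It had 474 distal reads and 1 upstream read in Ctr and 399 and 0 in Clp1_KD, which left its change undetermined (1.34, -3.28 to 5.96). Slc8a1, a sodium and calcium exchanger with a distal part of 14449 bp, had 77 and 0 reads in Ctr and 50 and 21 in Clp1_KD, a ratio at least 10.8-fold lower. Against all upstream exons its change was -0.44 (-1.09 to 0.21), so that its call rests on the upstream part with no Ctr read. Fbxl17, an F-box protein (14096 bp), had ratios of 0.07 and 0.10, a change of 0.57 (0.12 to 1.03). Strbp, an RNA-binding protein of spermatids (13787 bp), was shortened. Its reads went from 605 distal and 130 upstream to 643 and 601 (-2.12, -2.43 to -1.80), so that the upstream part rose by 1.83. Tnrc6b, a partner of Argonaute in microRNA silencing (11492 bp), was shortened as well, from 1037 and 26 reads to 617 and 51 (-1.71, -2.40 to -1.02), and its distal part overlaps AC125540.1. At the 2500 bp limit, Btbd3 and Slc25a51 (2501 bp each) had changes of -0.43 and -0.55. Just outside it, Ptp4a1 and Camk2n1, 1 and 3 bp short of it, had changes of 0.14 and 1.12.

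Genes of defined function were described by group, each against the 16.8% lengthened and 18.2% shortened of all 791. Of 11 genes known for regulated 3'UTR length, 1 was lengthened and 3 were shortened, with a median change of -0.12. Vma21, an assembly factor of the vacuolar proton pump, had 477 distal and 284 upstream reads in Ctr and 1627 and 333 in Clp1_KD, and its ratio went from 0.12 to 0.34 (1.54, 1.27 to 1.81). Among the shortened genes, Nras, a small GTPase, went from 1.01 to 0.44 and the microRNA-processing nuclease Dicer1 from 1.01 to 0.18 (-2.37, -3.84 to -0.90) with only 4 upstream reads in Ctr. The genes without a call included Ccnd1 and Timp2, with changes of -0.71 (-0.99 to -0.44) and -0.67 (-0.87 to -0.46), Ccnd2 with one of -0.12 and Elavl1 with one of 0.12. The 2 members that belong to the 3' end processing machinery were not called either. Cpsf6, a subunit of cleavage factor I, had a ratio of 0.32 in both libraries (0.02, -0.24 to 0.27), on 879 distal and 208 upstream reads in Ctr and 2647 and 620 in Clp1_KD, and Cpsf2 had 0.15 and 0.13.

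Of 12 genes of RNA binding and silencing, 1 was lengthened and 3 were shortened (median change -0.36). The lengthened gene was Mbnl3, a splicing regulator of the muscleblind family (138 and 94 reads, then 551 and 108; 1.79, 1.31 to 2.27). The shortened ones were the splicing factor gene Rbfox2 (583 and 70 reads, then 259 and 135; -2.11, -2.58 to -1.65), Tnrc6b and Dicer1. Argonaute gene Ago2 had ratios of 0.09 and 0.06. Of 12 ubiquitin system genes 2 were lengthened and 1 was shortened (0.18). The scaffold gene Cul5 rose from a ratio of 0.15 to 0.83 (2.42, 1.84 to 3.01), and the ligase Nedd4l had a change of 1.35 (0.54 to 2.15). Btrc, the F-box protein that recognises beta-catenin, had one of -2.68 (-3.28 to -2.08). Of 22 transcription factors 6 were lengthened and 3 shortened (0.19), among them Sp1 (31 and 321 reads, then 159 and 252; 2.69, 2.09 to 3.29) and Gabpa (ratios of 0.29 and 0.82) on one side, and Tcf4 (-1.21, -1.46 to -0.97) and Aff4 (-1.55, -2.40 to -0.69) on the other. Kinases, phosphatases, GTPases and their regulators numbered 30, with 4 lengthened and 8 shortened (-0.17). The lengthened ones were Sos1, the exchange factor of Ras (2.68, 1.97 to 3.39), Prkaa2, a catalytic subunit of AMP-activated kinase (2.90, 1.94 to 3.86), Rgs17 and Map3k2. The activin receptor gene Acvr2a (-2.57, -3.12 to -2.02; its distal part overlaps Orc4 on the other strand) and the phosphatase gene Dusp3 (-3.09, -4.38 to -1.80) were the most shortened by the bound of the interval among those with 50 reads in each library. Against all upstream exons in place of the upstream last exon, Acvr2a (-0.99), Tcf4 (interval -1.18 to -0.82) and Aff4 (-0.65) fell short of the call.

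Of 7 immune and thymic epithelial genes, 1 was lengthened and 2 were shortened (-0.36). Itgav, the integrin alpha chain that activates latent TGF-beta, had 32 distal and 53 upstream reads in Ctr and 998 and 200 in Clp1_KD. Its ratio went from 0.20 to 1.62 (3.04, 2.37 to 3.70) while the whole transcript rose by 2.79 on the log2 scale. Lifr was shortened, as described, and Itga4, with 97 and 2 reads in Ctr and 79 and 9 in Clp1_KD, had a change of -2.22 (-4.28 to -0.17). Of 19 neuronal and synaptic genes, 4 were lengthened and 1, Plxna4, was shortened (median 0.38, or 0.32 with 3 reads in place of 0). Map1b, a microtubule-associated protein of axons, had a change of 2.34 (0.76 to 3.92) on 11 and 4 upstream reads, and Cacnb4 was lengthened as well. Against all upstream exons in place of the upstream last exon, Map1b and Itga4 changed direction (-0.66 and 0.96). Channels and transporters divided evenly, with 3 lengthened (Slc1a2 and Cacnb4 among them) and 3 shortened (Slc30a10, Slc8a1 and Slc43a2) of 24. The glutamate transporter gene Slc1a2 had a change of 4.17 (2.41 to 5.92). Zinc finger genes also went both ways, 5 lengthened and 6 shortened of 22, with Zfp704 (-2.99, -3.70 to -2.27) and Zfp113 (-1.77, -2.32 to -1.22) the most shortened by the bound of the interval among those with 50 reads in each library. Of 5 Tmem genes, Tmem44 was lengthened and Tmem106b, a lysosomal membrane protein, shortened (-1.56, -1.87 to -1.26). No long distal 3'UTR belonged to the cadherins and protocadherins that were looked for.

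**Figure D5:**
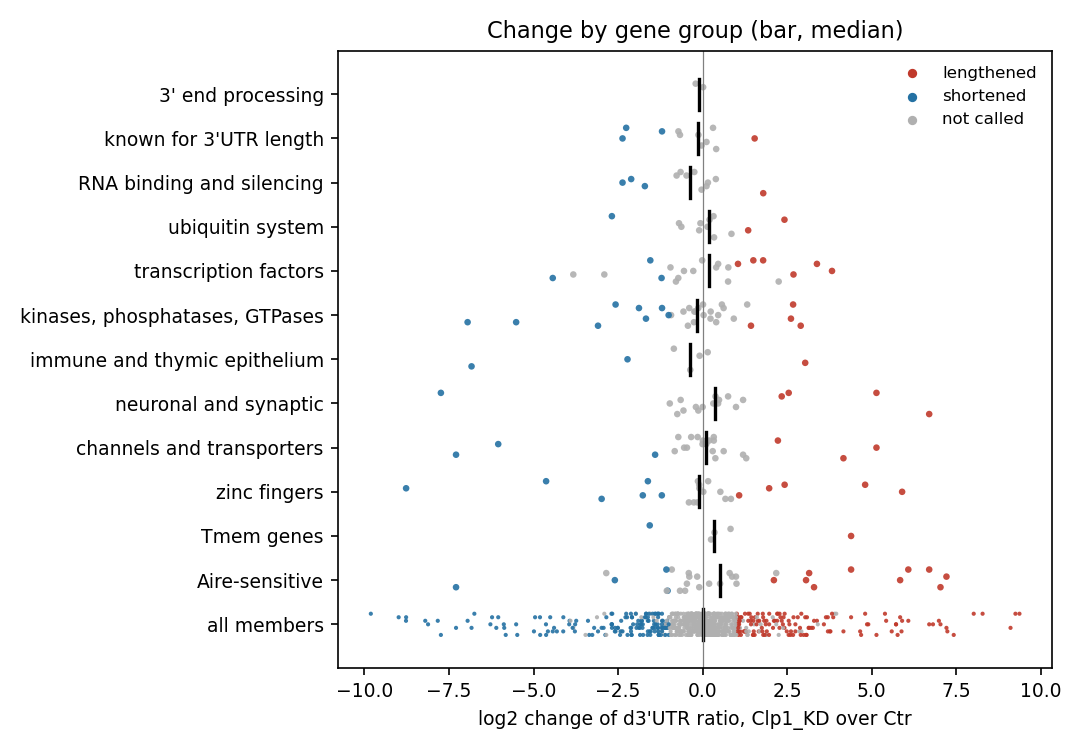
Log2 change of the d3'UTR ratio, Clp1_KD over Ctr, for each gene (points, red lengthened, blue shortened, grey not called) in 11 gene groups, in the Aire-sensitive genes and in all 791 genes with long distal 3'UTRs; bars are medians. Called genes lie on both sides of 0 in all groups but 3' end processing, whose 2 genes have no call.

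Aire-sensitive genes, which Aire switches on in mTEChi and which include many antigens of peripheral tissues, were those on the list that the study selected on other libraries. Of the 870 genes with long distal 3'UTRs 65 were on it (7.47%), compared with 10.1% at 1000 to under 2500 bp, 12.1% at 200 to under 1000 bp and 14.2% under 200 bp. These 65 were 8.75% of the 743 Aire-sensitive genes with a distal 3'UTR of any length. Only 31 of the 65 had 10 last-exon reads in each library. Of these, 10 were lengthened (32.3%) and 4 shortened (12.9%), with 17 changes above 0 and 14 below. Their median change was 0.52 (order-statistic interval -0.46 to 2.18) and that of the 760 others was 0.01. The median ratio over all Aire-sensitive genes with an upstream read went from 0.204 in Ctr (42 genes) to 0.344 in Clp1_KD (44 genes). The other genes had 0.362 and 0.379. These differences lay in the genes with few reads. With at least 50 last-exon reads in each library, 4 of 21 Aire-sensitive genes were lengthened and 4 shortened, their median change was -0.16, and their median ratios were 0.363 and 0.381.

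The lengthened Aire-sensitive genes had few reads on at least 1 side. Miat, a long noncoding RNA, had 4 distal and 30 upstream reads in Ctr and 98 and 4 in Clp1_KD (7.21, 5.24 to 9.19). Aldh1l2, a mitochondrial folate enzyme, had 3 and 24 reads in Ctr and 20 and 2 in Clp1_KD (5.84, 3.35 to 8.33). Bambi, a decoy receptor of TGF-beta signalling, had 0 and 446 reads and then 30 and 207, a ratio at least 21.5-fold higher. Rab3c, a GTPase of secretory vesicles, had 0 and 30 reads and then 39 and 35 (at least 11.1-fold higher). The 4 shortened genes were Slc30a10 (above), C1qtnf1 (769 and 328 reads, then 199 and 174; -1.03, -1.38 to -0.69), the kinase gene Camk1d (251 and 79 reads, then 196 and 130; -1.07, -1.56 to -0.59) and Cst6, a cystatin of skin (18 and 855 reads, then 2 and 698; -2.60, -4.51 to -0.68). C1qtnf1 (-0.98) and Camk1d (-0.97) fell just short of the call against all upstream exons. All 4 shortened genes had 50 or more last-exon reads in each library.

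Expression of the whole transcripts was compared last. Of 837 genes with long distal 3'UTRs and at least 50 reads over both libraries, 175 were 2-fold or more higher in Clp1_KD (20.9%) and 110 lower (13.1%). Over all 16831 genes with 50 reads the shares were 19.1% and 18.6%. The median log2 ratio was 0.16 for the long class, 0.14 at 1000 to under 2500 bp, 0.08 at 200 to under 1000 bp and 0.00 over all genes. By the change of the 3'UTR, the median log2 ratio of expression was 0.27 for the 132 lengthened genes, 0.13 for the 144 shortened and 0.10 for the 513 without a call, and 27, 29 and 89 of these were 2-fold higher and 18, 14 and 68 lower. Whole-transcript reads include the last-exon reads that made the calls, so these medians and counts are not independent of the calls. Among genes with at least 10 last-exon reads in each library, the Aire-sensitive ones with long distal 3'UTRs stood lower. Their median was -1.03 over 30 genes, of which 16 were 2-fold lower and 5 higher. The other 759 had a median of 0.15, with 84 lower and 140 higher. This limit kept 31 of the 65 Aire-sensitive genes, and 1 of the 31 had under 50 reads. Of the long class below the limit, Aire-sensitive or not, 76 genes had at least 1 read over both libraries. Their median was 1.25, with 38 higher and 18 lower. In Clp1_KD the endothelial, thymocyte and fibroblast markers were lower as well (summed levels above). Their part in the lower level of the 30 Aire-sensitive genes was not tested.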

How the data were processed

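Total RNA was converted to cDNA by template switching, fragmented by transposase and sequenced as 50 bp single-end reads. The submitters' notes name Bowtie 1.0.0, bedtools and the mm9 build. The deposited counts are whole, unnormalized read numbers, a read being counted when it lay fully in an exon, for 30794 RefSeq transcripts and for the parts of 27567 transcripts. The authors' table of differential expression holds normalized signal values per library, folds (ratio) and DESeq p-values, and was not used here. The proximal site is the most proximal one in PolyA_DB 2. PCR reads are not independent molecules, so intervals and floors cover counting error only.

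The length limit used no read, but it and the gene lists were chosen with earlier results of these data known. Symbols came from the GRCm38.p6 RefSeq table by identifier (1266 of 1279 transcripts matched, and 9 genes stayed unnamed). The transcript with most reads stood for each gene, and 4 unnamed entries with the lengths and reads of a named gene were dropped as copies. Parts were placed on NCBIM37 (mm9) with GENCODE vM1 by last-exon length within 100 bp. Of 42 sites compared with the study's annotation 41 were the same. Motifs were sought on the transcript strand only, overlaps included. Changes of the d3'UTR ratio are log2 odds ratios with 0.5 added to each of 4 counts and a Woolf 95% interval. A part at 0 was set to a floor of 3 reads in that library for bounds. Expression was scaled by median-of-ratios size factors (0.877 Ctr, 1.14 Clp1_KD), with 95% Clopper-Pearson (exact) intervals of each gene's read share. The deeper Clp1_KD library is the more precise. Named genes were the 10 most lengthened and 10 most shortened by the bound nearest 0 (50 last-exon reads in each library), the 5 longest, the 5 most read, 2 per direction and gene list, 5 per direction among Aire-sensitive genes, and those at the length limit. Scripts used Python 3.11.15, numpy 2.4.6, pandas 2.3.3, scipy 1.17.1 and pysam 0.24.0, and edgeR 4.0.16 for TMM factors, and were tested on simulated data. Some genes that this rule names are not reported here.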

Additional observations from a re-analysis of the deposited data

How the results depend on the processing

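With 1 library per group the spread between mice or sorts is unknown, and depth limits the ratio of genes with few last-exon reads. Every transcript in place of 1 per gene gave larger counts from more transcripts tested, and transcripts of a gene share reads. Of 1169 transcripts 202 were lengthened. In expression 266 of 1232 transcripts were higher and 167 lower, and among the Aire-sensitive 25 of 48 were lower. A distal minimum of 2000 bp gave 200 lengthened and 217 shortened, and one of 3500 bp gave 59 and 71, over more and fewer genes. A minimum of 100 last-exon reads in each library left 82 lengthened and 113 shortened of 638. With all upstream exons as denominator the median ratio in Clp1_KD was 0.417 and the median change 0.10, and Map1b turned to -0.66 and Itga4 to 0.96. Lengthened genes then outnumbered shortened ones, 158 to 144 of 822, whereas the main setting gave 133 and 144 of 791. The cause of these shifts was not tested. With effective lengths the Clp1_KD ratio without a signal was 0.461. In all, 81 values of this kind, among them the signal classes, the pseudocounts, TMM and total reads, lay within the interval over genes or within 1.5 times the count. Of single named genes, 9 more lost their call under the other denominator, as given beside most of them, and none under a pseudocount of 2. The median change of Aire-sensitive genes was -0.16 with 50 last-exon reads in each library, 0.36 with every transcript and 0.48 with a pseudocount of 2. The alternatives by signal, by genome placement and for single genes were chosen after seeing the data. No paired analysis was possible because each group has 1 library.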
